A study of Mus musculus with 8 samples.

Results

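The transcripts of protein kinase A (PKA) were followed in mpkCCD cells. The genes were chosen by symbol: the catalytic subunits Prkaca and Prkacb, the regulatory subunits Prkar1a, Prkar1b, Prkar2a and Prkar2b, and the protein kinase inhibitors Pkia, Pkib and Pkig. These are 9 of the 55414 genes in the tables, and 8 of them were among the 14772 genes with enough counts to be tested. mpkCCD is a mouse cell line that keeps properties of the principal cells of the renal collecting duct, and per the study's methods the cells were a re-cloned subclone, so a single clone stands for the cell type. All 8 libraries came from cells kept in dDAVP, a vasopressin analogue that activates the V2 receptor. In 4 libraries dDAVP was given alone. In the other 4 tolvaptan, a drug that blocks the V2 receptor, was added to it for about a day per the study's results section. The labels give neither dose nor time, and the study's text gives both. The labels also leave unsaid if replicates were grown as separate cultures. A p-value here is thus set by the scatter of these 8 libraries, and that scatter may be technical.

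PKA is held inactive as a complex in which a pair of regulatory subunits binds a pair of catalytic subunits. Cyclic AMP, made when the V2 receptor activates the stimulatory G protein and adenylyl cyclase, binds the regulatory subunits and frees the catalytic subunits, which in collecting duct cells phosphorylate proteins that control water transport and gene expression. The inhibitors are small proteins that bind free catalytic subunits and can carry them out of the nucleus. Type I complexes hold Prkar1a or Prkar1b products and are largely cytosolic, whereas type II complexes hold Prkar2a or Prkar2b products and are mostly tethered by A-kinase anchoring proteins.

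The regulatory subunits and the inhibitors share a short stretch that lies in the active site of the catalytic subunit. It is shown because it is the feature common to the 7 genes whose products restrain the kinase, and because it separates them into forms that mimic a substrate and forms that are a substrate. Each line gives the 30 coding bases, 5′ to 3′ on the coding strand, read from the GRCm38 genome. The capitals mark the codon at the position where a substrate would accept phosphate.
Prkar1a: ggccgacggcgccgaggtGCTatcagtgct
Prkar1b: gcgcgtcgccggcggggcGGTgtgagtgct
Prkar2a: aaatttactagacgagtaTCAgtctgtgca
Prkar2b: cggttcacaaggcgtgccTCGgtctgtgca
Pkia: agaacaggtagaagaaatGCAatacatgat
Pkib: agggcaggccgccgcaatGCCttacccgac
Pkig: cggacaggccgtcggaatGCAgtccctgac
The capital codon begins with TC only in the type II genes Prkar2a and Prkar2b, whose products are phosphorylated at this site by the kinase they inhibit. The type I subunits and the inhibitors carry a residue there that cannot accept phosphate. The Prkar1a stretch lies in exon 4 of 12 at chr11:109660098-109660127 on the plus strand, and that of Prkar1b in exon 3 of 11 at chr5:139108526-139108555 on the minus strand. In Prkar2a (chr9:108714287-108716870, plus strand) and Prkar2b (chr12:31993776-32038643, minus strand) the stretch is divided between exons 2 and 3 of 11, and the intron between them is not shown. In the inhibitors it lies in exon 2 of 3 of Pkia (chr3:7437410-7437439), exon 5 of 6 of Pkib (chr10:57728164-57728193) and exon 3 of 4 of Pkig (chr2:163721196-163721225), all on the plus strand.

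Among libraries, total expected counts ran from 46189118 to 56203831 with dDAVP alone and from 41179670 to 49720488 with tolvaptan. Of 12 principal cell markers, 10 had a mean of 1 TPM or more, TPM being a measure in which reads are divided by transcript length and libraries are brought to one common total, the exceptions being Scnn1b and Elf5. Of the markers of other cells, 2 of 8 for intercalated cells (Aqp6 and Slc4a9), 1 of 8 for proximal tubule (Lrp2), 0 of 6 for the loop of Henle and distal tubule and 0 of 10 for stromal, endothelial and blood cells reached that level, and the proximal tubule gene Kap was at 0 in every library. The summed TPM of each list overlapped between the groups: 9105 to 11350 against 9512 to 12040 for principal cells, 5.13 to 5.94 against 4.92 to 7.17 for intercalated cells, 8.65 to 10.31 against 8.99 to 11.75 for proximal tubule, 1.05 to 1.76 against 1.37 to 1.59 for loop and distal tubule, and 0.17 to 0.81 against 0.39 to 1.0 for stromal, endothelial and blood cells. Aqp2 had the highest expected count of all genes in every library, so the principal cell sum does not show if the other markers of that list were level. In bulk samples, fewer cells of a type and less RNA per cell cannot be told apart.

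The catalytic subunits were both expressed, and Prkaca was the more abundant. Prkaca (ENSMUSG00000005469, chr8:83972993-83996443, plus strand, GRCm38) encodes the alpha catalytic subunit. With dDAVP alone its level was 139.80, 146.74, 134.90 and 142.14 TPM in replicates 1 to 4, and with tolvaptan it was 133.76, 148.82, 136.80 and 142.65 TPM. The groups overlapped almost completely, with means of 140.9 ± 4.93 and 140.5 ± 6.66 TPM (SD, n = 4). The log2 fold change from the counts was -0.01 with a standard error of 0.05 and a 95% interval from -0.12 to 0.10 (adjusted p = 0.952, edgeR's quasi-likelihood test with Benjamini-Hochberg adjustment). Expressed as a percentage, the interval ran from -8.30% to 7.08%.

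Prkacb (ENSMUSG00000005034, chr3:146729574-146812990, minus strand) encodes the beta catalytic subunit. Its level was 34.90, 35.20, 33.62 and 36.75 TPM with dDAVP alone and 39.66, 38.52, 37.49 and 36.29 TPM with tolvaptan. Of the tolvaptan libraries, 3 lay above every dDAVP library, and tolvaptan replicate 4 lay below dDAVP replicate 4. The means were 35.12 ± 1.29 and 37.99 ± 1.44 TPM. The log2 fold change of 0.10 (standard error 0.05, 95% interval -0.0049 to 0.21) had the smallest p of the 8 tested PKA genes, 0.0595 before and 0.471 after adjustment in edgeR's quasi-likelihood test, and it did not pass. The interval in percent ran from -0.337% to 15.8%.

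The coding sequences of Prkaca and Prkacb were identical at 79.9% of aligned bases, which raises the question of whether reads could be assigned to one gene. The longest run of identical bases shared between any of their annotated transcripts was shorter than a read, at 34 bases:
Prkaca and Prkacb: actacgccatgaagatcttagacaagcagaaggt
No 50-base word of Prkacb occurred in any other annotated gene, 50 bases being the length of one read of a pair. Of the 2438 such words of Prkaca, 8 (0.328%) also occurred in the pseudogene Prkaca-ps1.

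Among regulatory subunits, Prkar1a was the most abundant by far. Prkar1a (ENSMUSG00000020612, chr11:109649405-109669656, plus strand), the widely expressed type I alpha subunit, was at 380.75, 380.31, 387.49 and 378.96 TPM with dDAVP alone and at 372.31, 378.06, 378.69 and 369.34 TPM with tolvaptan. Every tolvaptan library was below every dDAVP library, but the gap was small: the highest tolvaptan value was 378.69 TPM and the lowest dDAVP value 378.96 TPM. The means were 381.9 ± 3.82 and 374.6 ± 4.53 TPM. On counts normalized between libraries the groups overlapped, and the log2 fold change was -0.03 with a standard error of 0.04 and a 95% interval from -0.11 to 0.05 (adjusted p = 0.822, edgeR's quasi-likelihood test). The interval in percent ran from -7.59% to 3.80%, the narrowest of the 8 tested PKA genes.

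Prkar2b (ENSMUSG00000002997, chr12:31958476-32061296, minus strand), the type II beta subunit, came next. It was at 83.03, 85.91, 85.08 and 82.55 TPM with dDAVP alone and at 79.07, 77.79, 76.01 and 80.36 TPM with tolvaptan. In TPM the groups were apart, with means of 84.14 ± 1.61 and 78.31 ± 1.86. Prkar1a and Prkar2b were the only PKA genes whose TPM did not overlap between groups, and of all 14772 genes tested 6.53% had TPM without overlap. In log2 CPM, which are counts scaled by library size with TMM normalization and not by length, none of the 8 tested PKA genes was without overlap, against 7.76% of all genes tested. The log2 fold change of Prkar2b from the counts was -0.07 with a standard error of 0.05 and a 95% interval from -0.18 to 0.04 (adjusted p = 0.656, edgeR's quasi-likelihood test), which is -11.5% to 2.67%. On the TPM scale, limma on log2(TPM + 1) gave -0.10 with a p of 0.0247 before and 0.424 after adjustment, so Prkar2b did not pass there either.

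Prkar2a (ENSMUSG00000032601, chr9:108689314-108750436, plus strand), the type II alpha subunit, was at 27.03, 28.99, 27.26 and 25.86 TPM with dDAVP alone and at 28.71, 29.70, 25.02 and 28.89 TPM with tolvaptan. The tolvaptan group held both the highest and the lowest of the 8 values. The means were 27.29 ± 1.29 and 28.08 ± 2.08 TPM, and the log2 fold change was 0.01 with a standard error of 0.06 and a 95% interval from -0.13 to 0.14 (adjusted p = 0.979, edgeR's quasi-likelihood test). The aligned coding sequences of Prkar2a and Prkar2b were identical at 70.3% of bases. The longest run shared between any of their annotated transcripts was 36 bases, again shorter than a read:
Prkar2a and Prkar2b: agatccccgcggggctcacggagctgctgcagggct

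Prkar1b (ENSMUSG00000025855, chr5:139017306-139150001, minus strand), a type I subunit known mainly from brain, was near the limit of what the depth could measure. It had 16.12, 21, 26.41 and 18.66 expected counts with dDAVP alone and 22, 18, 11.88 and 18.22 with tolvaptan. The corresponding TPM were 0.90, 0.34, 1.13 and 0.76, and then 0.41, 0.79, 0.37 and 0.72, so that the groups overlapped on both scales. The 95% interval of the log2 fold change ran from -0.82 to 0.57 (adjusted p = 0.923, edgeR's quasi-likelihood test), wide enough to hold a fall to 0.565 times or a rise to 1.49 times the level with dDAVP alone. Of its 50-base words, 294 of 3774 (7.79%) are shared with Gm15672, a transcript annotated on the same strand whose exons overlap those of Prkar1b by 341 bases, so part of the counts of either gene could belong to the other.

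The inhibitors differed from each other far more than from one group to the other. Pkig (ENSMUSG00000035268, chr2:163658386-163726158, plus strand), the gamma inhibitor, was at 142.81, 141.07, 141.50 and 127.60 TPM with dDAVP alone and at 137.27, 127.89, 143.14 and 136.67 TPM with tolvaptan. One library in each group was low, and the groups overlapped. The means were 138.2 ± 7.14 and 136.2 ± 6.29 TPM, and the log2 fold change was -0.07 with a standard error of 0.07 and a 95% interval from -0.22 to 0.09 (adjusted p = 0.774, edgeR's quasi-likelihood test), which is -14.2% to 6.08%.

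Pkia (ENSMUSG00000027499, chr3:7366669-7445366, plus strand), the alpha inhibitor, had a lower level and a direction that depended on the scale. It was at 10.17, 9.68, 9.09 and 10.30 TPM with dDAVP alone and at 7.29, 10.53, 9.27 and 8.89 TPM with tolvaptan, means of 9.81 ± 0.549 and 8.995 ± 1.34. The expected counts were 684, 620, 609 and 545 with dDAVP alone and 601, 634, 651 and 555 with tolvaptan. The log2 ratio of mean TPM was -0.13, whereas the log2 fold change from the counts was 0.09 with a standard error of 0.08 and a 95% interval from -0.08 to 0.27 (adjusted p = 0.715, edgeR's quasi-likelihood test). Neither direction passed a test, since limma on log2(TPM + 1) gave -0.12 with an adjusted p of 0.754.

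Pkib (ENSMUSG00000019876, chr10:57631981-57741112, plus strand), the beta inhibitor, was barely detected. Its expected counts were 5, 5, 3 and 1 with dDAVP alone and 6, 4, 1 and 3 with tolvaptan, and it did not reach the minimum of 10 counts in at least 4 libraries. Its TPM lay between 0.01 and 0.11 in all 8 libraries. No fold change is given for it, because a difference could not be measured at this depth. Of its 50-base words, 222 of 11928 (1.86%) occur in other genes, 637 of them in all, so even these few counts are uncertain.

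**Figure D1:**
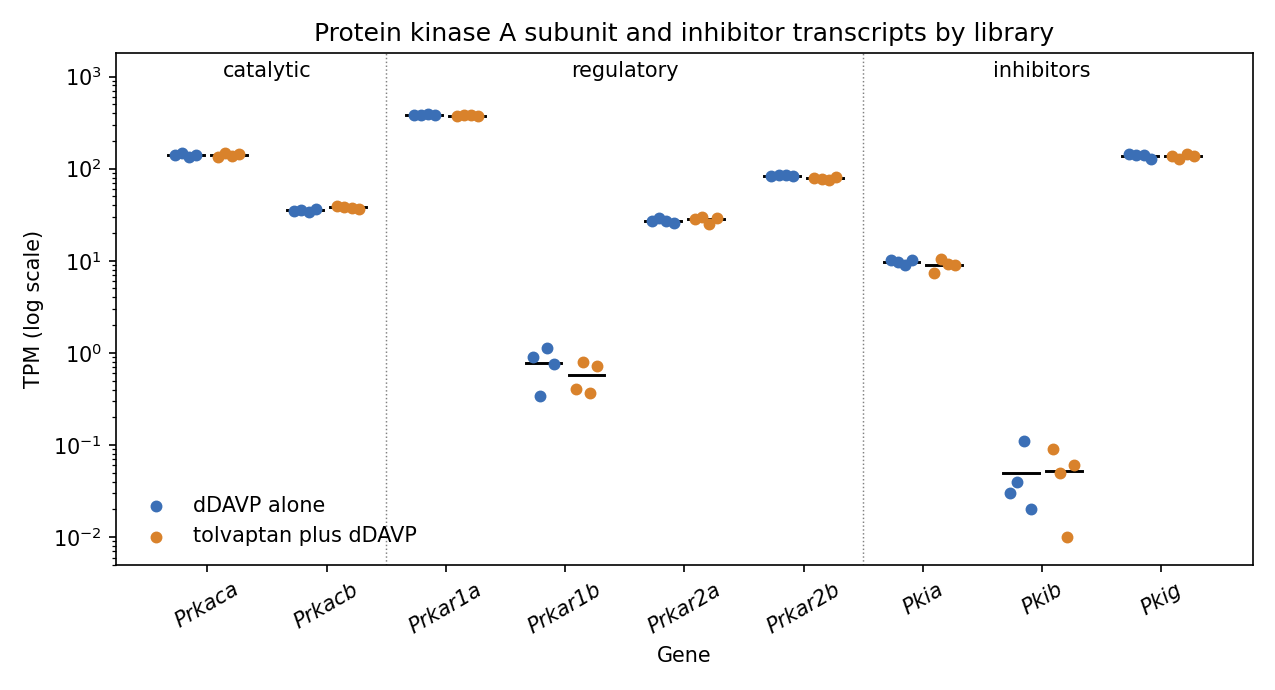
TPM of the 9 PKA genes on a log axis, with 1 point per library and a bar at the mean of each group of 4. The order of the genes is alike in both groups, from Prkar1a at 369.3 to 387.5 TPM down to Pkib at 0.01 to 0.11 TPM.

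Set in order over the 8 libraries, the mean levels were 378.2 TPM for Prkar1a, 140.7 for Prkaca, 137.2 for Pkig, 81.22 for Prkar2b, 36.55 for Prkacb, 27.68 for Prkar2a, 9.40 for Pkia, 0.678 for Prkar1b and 0.0513 for Pkib. TPM is divided by transcript length, so these levels can be compared between genes as far as that length is right. Prkaca and Pkig were alike only after this division, with 6509 to 9691 and 2220 to 3624 expected counts. Only one step in this order was within the spread between libraries: Prkaca exceeded Pkig in 4 of 8 libraries, 2 in each group, with a mean log2 ratio of 0.04 ± 0.11. Each of the other 7 steps went the same way in 8 of 8 libraries and the ranges of the neighbours did not meet. The smallest of those steps was Prkacb over Prkar2a, at 1.32-fold, followed by Pkig over Prkar2b at 1.69-fold. Among genes with a mean of 1 TPM or more, Prkar1a stood at percentile 96.7, Prkaca at 86.7, Pkig at 86.4, Prkar2b at 76.7, Prkacb at 57.8, Prkar2a at 51.2 and Pkia at 29.9.

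Each role was thus carried mostly by 1 gene. Of the catalytic TPM, Prkaca made up 80.05 ± 0.489% with dDAVP alone and 78.69 ± 1.17% with tolvaptan, and the ranges overlapped (79.46% to 80.65% and 77.13% to 79.72%). Of the inhibitor TPM, Pkig made up 93.33 ± 0.586% and 93.76 ± 1.05%. These shares describe transcripts and do not measure protein.

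Of the regulatory TPM, type I subunits made up 77.45 ± 0.434% with dDAVP alone and 77.91 ± 0.754% with tolvaptan, nearly all of it Prkar1a. Prkar2b made up 17.03 ± 0.209% with dDAVP alone (16.89% to 17.34%) and 16.26 ± 0.427% with tolvaptan (15.83% to 16.77%), ranges that did not overlap. Prkar2a made up 5.522 ± 0.235% and 5.83 ± 0.416%, so the ratio of Prkar2b to Prkar2a was 3.09 ± 0.0961 and 2.80 ± 0.175, with overlap. These are shares of sums over chosen genes and were given no test.

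The sum of regulatory transcripts exceeded that of catalytic transcripts in every library. The ratio was 2.81 ± 0.116 with dDAVP alone (2.724 to 2.973) and 2.70 ± 0.0801 with tolvaptan (2.596 to 2.771), and the groups overlapped. The ratio of inhibitor to catalytic transcripts was 0.843 ± 0.0551 and 0.815 ± 0.0568, also with overlap. From counts not divided by length this second ratio was 0.289 and 0.276. The regulatory sum was 494.1 ± 5.49 TPM against 481.6 ± 3.22 TPM, without overlap (488.1 to 501.0 and 479.3 to 486.3), whereas the catalytic sum (176.0 ± 5.81 and 178.5 ± 6.37 TPM) and the inhibitor sum (148.1 ± 6.87 and 145.3 ± 5.71 TPM) overlapped. Prkar1a and Prkar2b, the genes without overlap in TPM, make up most of the regulatory sum, so it is no separate observation.

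**Figure D2:**
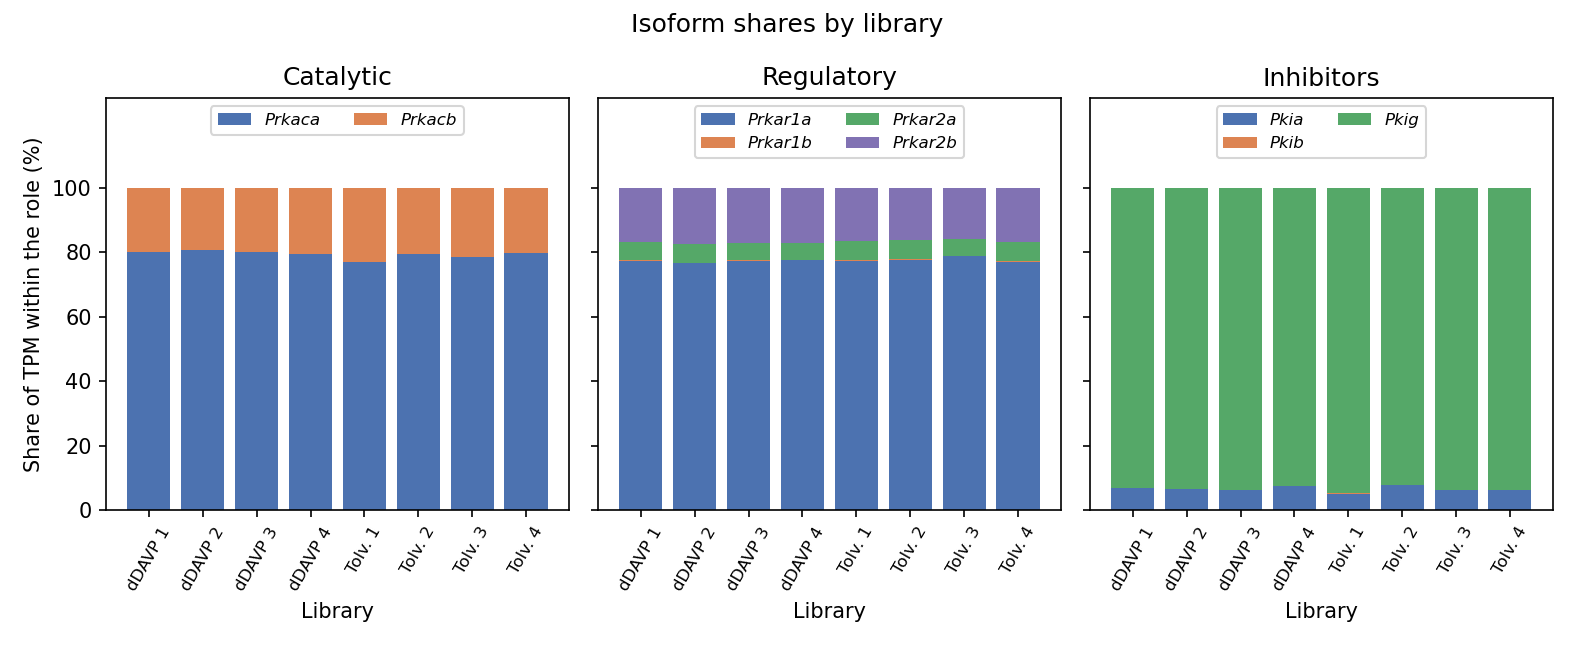
Share of TPM (%) that each gene takes within its role, with 1 stacked bar per library (dDAVP 1 to 4, dDAVP alone; Tolv. 1 to 4, tolvaptan plus dDAVP). Prkaca, Prkar1a and Pkig take the largest share in all 8 libraries, and the segments of Prkar1b and Pkib are too thin to see in most bars.

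The comparison of the groups asked whether the PKA genes changed when the V2 receptor was blocked in the presence of its agonist. No PKA gene passed the test: 0 of 8 were called by edgeR's quasi-likelihood test at an adjusted p under 0.05, where 59 of all 14772 genes (0.399%) were called. None of the 8 had an unadjusted p under 0.05 in this fit, which 11.2% of all genes had, a difference that 8 genes are too few to show. DESeq2 called 0 of the 8 and 2.28% of all genes. It gave Prkar1b no adjusted p, and a gene without one counts as not called. The count of 59 itself was unsteady: it was 21, 20, 21 and 28 without dDAVP alone replicates 1 to 4. It was 82, 39, 43 and 22 without tolvaptan replicates 1 to 4, and 0 PKA genes were called each time. Of the 8 log2 fold changes, 3 were above 0 (Prkacb, Prkar2a and Pkia) and 5 below. Their median was -0.02 beside -0.0048 for all genes tested, and their median size was 0.0685 beside 0.0854.

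The size of change that these libraries leave possible differed among the genes. On the log2 scale the 95% interval reaches equally far to both sides of the estimate. Written as a percent rise above the estimate, that reach was 5.98% for Prkar1a, 7.73% for Prkar2b, 7.81% for Prkacb and 8.06% for Prkaca. It was 9.87% for Prkar2a, 11.2% for Pkig, 12.8% for Pkia and 62.2% for Prkar1b. A fall of the same log2 size is a smaller percentage. A missed threshold does not show that a level was the same. The interval itself, from -43.5% to 48.7% for Prkar1b, gives the changes compatible with the data for that gene taken alone. It is not adjusted for the number of genes, so it does not give the smallest change that would have been called.

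**Figure D3:**
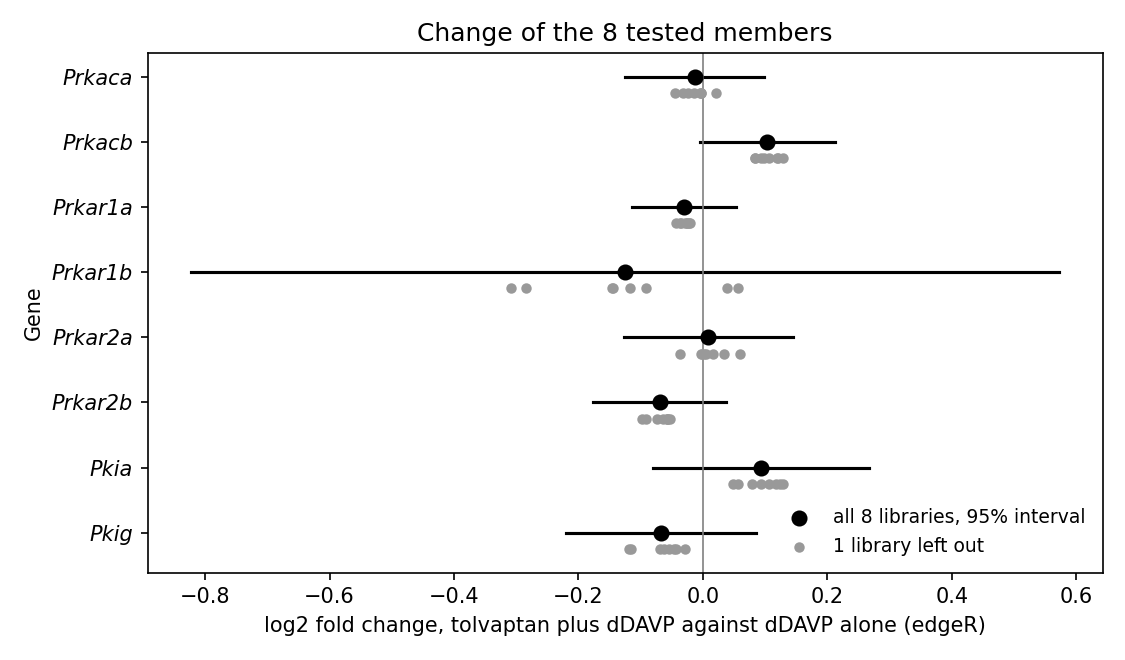
log2 fold change of the 8 tested PKA genes, tolvaptan plus dDAVP against dDAVP alone, from edgeR (black, with the 95% interval) and after omitting any 1 of the 8 libraries (grey). Every interval spans 0, and that of Prkacb does so by the least, at -0.0049.

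**Figure D4:**
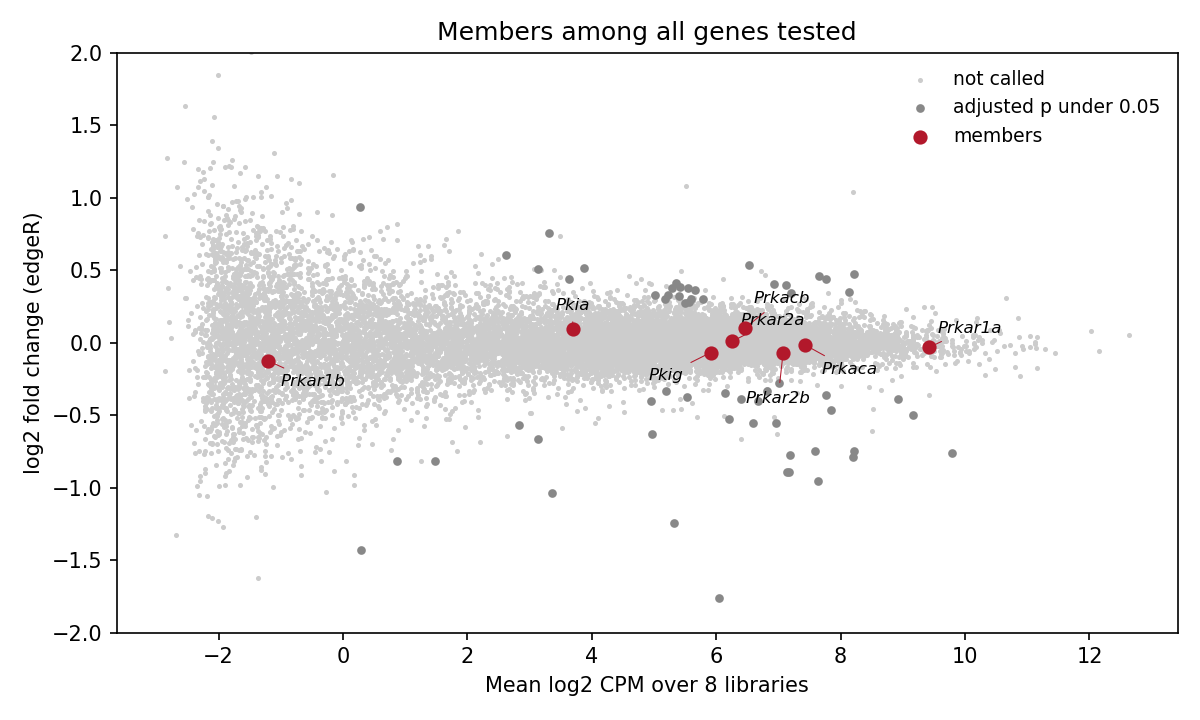
log2 fold change against mean log2 CPM for all 14772 genes tested, with the 59 called genes in dark grey and the 8 tested PKA genes in red. All 8 PKA genes lie among the genes not called, and 4 genes outside the axis from -2 to 2 are not drawn.

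Replicate libraries were close for most PKA genes. The SD of log2 CPM within groups had a median of 0.0789 over the 8 tested PKA genes and 0.125 over all genes tested. Because this SD depends on the level of a gene, each was set beside genes within 0.5 of its own mean log2 CPM, a comparison added after the values were seen. For Prkar1a the SD was 0.0267, and of the 186 genes of like level, which had a median of 0.0722, 0% had a smaller one. For the other 7 genes the share of like genes with a smaller SD ran from 19.3% for Prkacb to 69.6% for Pkig.

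The ratio of expected count to TPM reflects the effective length by which RSEM divides each gene's counts, a length weighted by the transcripts it finds. It is formed from the counts and TPM given above, so it is no separate measurement. This ratio, the implied length, was scaled by the median of each library, so a value of 1 is that of the median gene. It could be followed for 7 PKA genes among 11939 genes with 1 TPM or more in all libraries. None of the 7 had implied lengths without overlap between groups, as 2.35% of those genes had.

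Pkia varied most. Its implied length was 0.976, 1.14, 1.18 and 0.908 with dDAVP alone and 1.68, 1.04, 1.16 and 1.14 with tolvaptan, a coefficient of variation of 20.3% where the median gene had 3.09%. Tolvaptan replicate 1 stood well above the other 7 libraries. It was also the library with the lowest Pkia TPM, which is the divisor of this ratio. The log2 ratio of the group means was 0.26 with all libraries and 0.08 without that library. That library was also lowest for Prkaca (0.993) and Pkig (0.330) and highest for Prkacb (2.03) and Prkar2b (1.46), but at neither end for Prkar1a and Prkar2a. Annotated Pkia transcripts (GENCODE M21) number 3 and run from 315 to 3617 bases, so a shift between them would change the TPM without a change in counts. Fragment length also enters the ratio, and neither was tested. Transcript levels were not analysed here.

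For the other 6 genes the implied length was steadier. Prkaca, with 2 annotated transcripts of 1399 and 2276 bases, had a coefficient of variation of 0.506%, Prkar1a of 0.812% and Prkacb of 1.26%. Prkar2a had 2.91%, also below the 3.09% of the median gene, whereas Prkar2b had 3.73% and Pkig 4.17%. The log2 ratio of group means was 0.04 for Prkar2b, 0.01 for Prkar1a, -0.02 for Prkar2a and -0.04 for Pkig. For Prkar2b this was opposite in sign to its TPM, so that its log2 ratio of mean TPM, -0.10, was larger in size than its fold change from counts, -0.07.

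**Figure D5:**
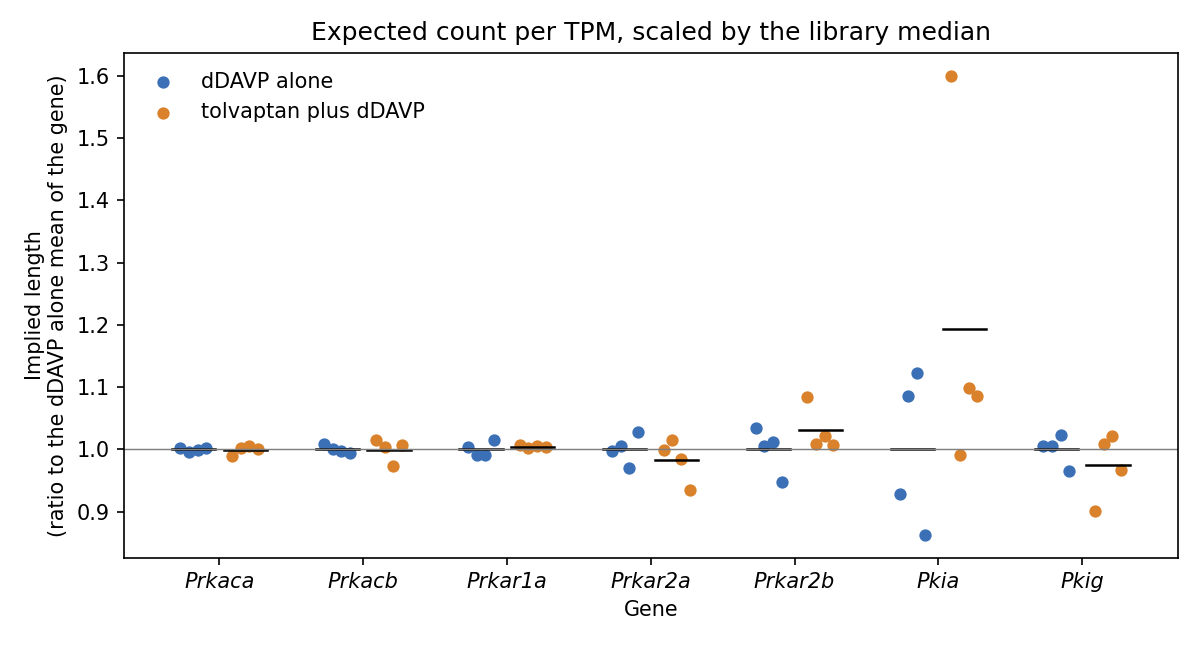
Expected count per TPM, scaled by the median of each library and divided by the gene's mean with dDAVP alone, with 1 point per library and a bar at the group mean. Pkia in tolvaptan replicate 1 lies far above all other points, and the other 6 genes stay close to 1.

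Promoters were searched for the cyclic AMP response element, the site bound by CREB, a transcription factor that PKA phosphorylates. RefSeq windows of 250 bases before to 50 after each start (GRCm38.p6) were at hand for 8 of the 9 genes, 24 windows in all. The full palindrome TGACGTCA was found on either strand in 2 overlapping windows of Prkar1a that share 1 site, and in 588 of 32851 windows of all genes (1.79%). The 60 bases around it, all before the start of the downstream window, are shown for Prkar1a with the palindrome in capitals (chr11:109650874-109650933, plus strand).
Prkar1a promoter: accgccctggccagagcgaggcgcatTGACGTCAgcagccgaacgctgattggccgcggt
The shorter form TGACG, which is part of the palindrome, occurred on either strand in 3 of 6 Prkar1a windows, 1 of 1 of Prkar2a, 1 of 2 of Prkaca, 1 of 3 of Prkacb, 1 of 3 of Pkig, 1 of 5 of Prkar1b, 0 of 2 of Prkar2b and 0 of 2 of Pkib, and in 20.8% of all windows. A match is a description of letters and does not show that a site is used.

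The genes whose levels followed the leading gene of each role most closely over the 8 libraries were named by Pearson's correlation of log2 CPM among 9313 genes. For Prkaca these were Irf2bp1 (0.972), Aunip (0.964) and Hnrnpul1 (0.949). For Prkar1a they were Setd3 (0.968), Orc3 (0.965) and Clpx (0.962), and for Pkig they were Pin4 (0.979), Trnt1 (0.971) and Srsf7 (0.965). With 8 libraries that share preparation and scaling and so many genes to choose from, high values can arise readily, and they are given as a description.

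Around PKA, 5 lists of pathway genes were counted in the same fit. Of all 14772 genes tested, 0.399% were called, and the median log2 fold change was -0.0048. The groups were without overlap for 7.76% of these genes in log2 CPM and for 6.53% in TPM. Lists this short cannot show a share of calls below that of all genes. Of 9 tested of 14 relatives and modifiers of PKA, none rose or fell, with a median log2 fold change of -0.04. Nmt1, which encodes an N-myristoyltransferase that acylates the catalytic subunit, had the highest level of this list at 86.98 ± 4.39 and 88.31 ± 4.87 TPM, and its exons overlap those of Dcakd on the opposite strand by 144 bases. The largest differences in it were those of Prkg2, a cyclic GMP-dependent kinase, at -0.14 ± 0.17 (log2 fold change and standard error) and Pdpk1, a kinase that phosphorylates the activation loop of related kinases, at 0.11 ± 0.08.

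Of 21 tested of 27 genes for A-kinase anchoring proteins, which tether regulatory subunits, none passed, with a median of 0.07. Ezr, for the membrane linker ezrin, had the highest level at 605.2 ± 30.2 and 585.5 ± 15.2 TPM. Akap12, a scaffold at the plasma membrane, was at 385.75 to 433.3 TPM with dDAVP alone and at 435.97 to 603.73 TPM with tolvaptan. Its groups did not overlap, yet its log2 fold change of 0.31 (standard error 0.08) had an adjusted p of 0.155 in edgeR's quasi-likelihood test, and 0.0343 in DESeq2. Arfgef2, for a guanine nucleotide exchange factor that also anchors PKA, had 0.22 ± 0.09, with overlap.

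The list of V2 receptor, G protein and adenylyl cyclase genes held the 1 pathway gene that passed. Of 13 tested of 20, Ric8b fell and none rose, and the median was -0.01. Ric8b encodes a chaperone of stimulatory G protein alpha subunits, which lie between the receptor and cyclic AMP. It went from 25.27 ± 1.22 TPM with dDAVP alone (23.64 to 26.58) to 20.3 ± 1.31 TPM with tolvaptan (18.9 to 22.07) (log2 fold change -0.33, standard error 0.05, adjusted p = 0.0243, edgeR's quasi-likelihood test). This call was lost in 7 of 8 fits that left out 1 library, where the adjusted p reached 0.109, and it held without tolvaptan replicate 1, at 0.0221. It was also lost in limma on log2(TPM + 1), at an adjusted p of 0.139, and on log2(TPM + 0.1), at 0.128. Gnas, for the stimulatory alpha subunit itself, was at 1009 ± 13.9 and 951.3 ± 107 TPM, with a log2 fold change of -0.07. The largest differences in size were in cyclases near the detection limit, Adcy5 with 1 to 23 counts and Adcy3 with 37 to 88, and neither passed. Exons of Adcy3 overlap those of Cenpo, at a mean of 37.37 TPM, by 1380 bases on the opposite strand, and those of Gnas overlap Gm20721, at 128.8 TPM, by 1469 bases on the opposite strand. The libraries do not record strand, so reads of either pair cannot be told apart there.

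Of 8 tested of 16 genes for cyclic AMP phosphodiesterases, which degrade the activator of PKA, none passed, with a median of 0.12. Pde7a, whose enzyme is selective for cyclic AMP, was highest at 149.1 ± 3.11 and 164.7 ± 4.87 TPM, without overlap between groups. Its log2 fold change was 0.18 with a standard error of 0.05 (adjusted p = 0.130 in edgeR's quasi-likelihood test and 0.0243 in DESeq2). Its exons overlap those of Gm16093 on the opposite strand by 48 bases. Pde2a, whose exons share 3955 bases with Gm45837 on the same strand, had 0 to 23 counts, and its log2 fold change of 0.44 had a standard error of 0.75.

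Of 18 tested of 18 nuclear effectors of PKA, none passed, with a median of 0.07. Ppargc1a, for a transcriptional coactivator induced through CREB in other tissues, was at 12.66 ± 0.954 TPM with dDAVP alone and 17.05 ± 0.948 TPM with tolvaptan, without overlap. Its log2 fold change of 0.41 (standard error 0.08) missed the threshold at an adjusted p of 0.0597 in edgeR's quasi-likelihood test, while DESeq2 gave 0.000768. Fos, an early response gene, ranged from 46.07 to 265.97 TPM with dDAVP alone and from 22.65 to 402.96 TPM with tolvaptan, so that replicates differed more than the groups. Nr4a3, a nuclear receptor of the same early class, had 5 to 19 counts with -0.31 ± 0.43 for the log2 fold change and its standard error.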

How the data were processed

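RNA-seq libraries of mpkCCD cells, 4 with dDAVP alone and 4 with tolvaptan plus dDAVP, were grouped by the sample titles. Columns were matched to titles by their Ctr or Tol names and replicate numbers, and every direction follows those names. Library preparation used SMARTer and Nextera XT kits per the labels, a method that does not record strand, and reads were paired-end of 50 bases. STAR and RSEM are named in the submitters' processing notes, and their versions are not given in the sources used here. The authors deposited expected counts per gene, estimated by RSEM and not normalized, and TPM values, which are divided by effective transcript length and scaled to a common sum per library. The authors' tables of their DESeq2 comparison and of term enrichment were not used.

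Expected counts were rounded. A gene was tested if at least 4 libraries reached 10 counts, which left 14772. The two-sided quasi-likelihood test of edgeR 4.0.16 (R 4.3.3) was applied with TMM scaling and no covariate, p was adjusted by Benjamini-Hochberg over all genes tested, and calls were made under 0.05. DESeq2, the tool of the study, served as an alternative (version 1.42.0). A standard error is the fold change divided by the root of F. log2 CPM had a prior count of 2. Levels and shares were taken from TPM without a test. Fits were tested on simulated data. The PKA genes and all lists were chosen with earlier results of these data known. Named were all 9 PKA genes and, from each pathway list, every called gene, the gene of highest mean TPM and the 2 tested genes of largest change. For likeness, the 3 genes closest to the leading gene of each role were taken among genes with a maximum TPM above 10. Akap2 and Palm2 of the anchoring list matched no row.

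Alternatives were RLE and upper-quartile scaling, DESeq2, limma 3.58.1 with voom and on log2(TPM + 1) and log2(TPM + 0.1), other filters, a block for replicate number, and omission of any 1 library. Loci, exons, overlaps and shared words came from GENCODE M21 on GRCm38, and promoters from RefSeq on GRCm38.p6; neither is the annotation the study used, so only gene identifiers link them to the counts.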

Additional observations from a re-analysis of the deposited data

Results flagged for a closer look

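In a group of 4, a library was looked at again when its gap to the nearest of the others took up more of the range of the group than Dixon's 95% critical value allows. Of 58 groups, 2 did so, where chance flags about 1 in 20. Pkig in dDAVP alone replicate 4 was at 127.6 TPM, below the next library at 141.1 TPM, a gap of 0.886 of the range. The share of Prkar2a in the regulatory TPM was 5.212% in tolvaptan plus dDAVP replicate 3, below the next library at 5.975%, a gap of 0.853 of the range. Neither value was left out of the results.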

How the results depend on the processing

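No PKA gene was called under any alternative run. The number of genes called, 59, became 337 with DESeq2, 256 with no filter, 28 with limma on log2(TPM + 0.1), 22 with limma on log2(TPM + 1) and 20 to 82 when 1 library was left out. With no filter, edgeR's test also called Akap12 (adjusted p = 8.52e-05), Ppargc1a (0.000351) and Fos (0.00589). The standard error of Fos was 0.0635 in that fit and 0.732 in the main fit, although its replicates differed widely, so calls without the filter need caution. Replicate numbers did not pair the libraries (correlations of same-numbered deviations -0.0126, 0.026, 0.157 and -0.00877), and with the replicate block 17 genes were called, none of them a PKA gene, and Ric8b had an adjusted p of 0.0996 in edgeR's test. From counts not divided by length, Prkaca was 66.86% and 65.01% of the catalytic sum (dDAVP alone, then tolvaptan), type I 76.47% and 76.61% of the regulatory sum, the regulatory to catalytic ratio 3.542 and 3.399, and the inhibitor to catalytic ratio 0.289 and 0.276, since longer transcripts then weigh more. With 1 library left out the log2 fold change ran from -0.0447 to 0.0216 for Prkaca, -0.309 to 0.0562 for Prkar1b, -0.0372 to 0.0592 for Prkar2a, -0.0175 to 0.0471 for Nmt1 and -0.826 to 0.968 for Fos. Prkar2a was -0.00689 with no filter. On log2(TPM + 1) and log2(TPM + 0.1), Pkia was -0.122 and -0.134, Pde2a -0.0411 and -0.209, and Fos -0.12 and -0.127. Fos was also -0.117 with voom and -0.275 with the replicate block. Without tolvaptan replicate 1, the library of lowest total count, several differences shrank: Pdpk1 to 0.0297, Gnas to -0.00844, Arfgef2 to 0.138 and Akap12 to 0.218. Those of Nmt1, Ezr, Ric8b, Adcy5, Pde2a and Fos became larger in size in that fit. Depth limits Pkib and Prkar1b, with at most 6 and 26 counts per library. The cause of the other differences was not tested.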
